A study of Mus musculus with 11 samples.

Results

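The amino acid transporter families Slc1, Slc3, Slc6, Slc7, Slc36, Slc38 and Slc43 were read as a group in mouse embryonic stem cells that carry mutations of DNA methyltransferases. The members are the gene symbols of these 7 families in the gene count table, leaving out Slc38a4 and pseudogene symbols, and they number 65 of 25239 genes. Of the 65, 62 are the family genes themselves and 3 are neighbours named after them for lying on the opposite strand (Slc7a6os, Slc36a1os and Slc6a19os), which are not described as transporters. The series holds 11 samples of the J1 stem cell line, and 3 of them are poly(A) RNA-seq libraries from day 0, made from cells labelled TKO_602, TKO_FL and TKO with a single library each. The series' text writes the first 2 with a plus sign, as additions to TKO, and labels of other samples spell TKO as DNMT TKO. Neither the meaning of the suffixes nor whether a line is 1 clone was stated in the sources used. All 3 cultures grew on mitomycin-treated mouse embryonic fibroblasts in serum with LIF, so reads of feeder cells are counted with those of the stem cells. The other 8 samples are immunoprecipitations of DNA and were not analysed here.

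Amino acid transporters are membrane proteins that move amino acids, and a few related compounds such as taurine and creatine, across the plasma membrane or out of lysosomes. Some use the sodium or proton gradient to concentrate their substrate, as the Slc1, Slc6, Slc36 and Slc38 proteins do, and others, such as most Slc7 light chains, exchange one amino acid for another and need an Slc3 heavy chain to reach the cell surface. Stem cells draw on this import for protein synthesis, for one-carbon metabolism and for the amino acid sensing that controls mTORC1, and mouse embryonic stem cells are known for their dependence on threonine.

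Depth and the check of the labels were as follows. Gene counts summed to 43158441 reads in TKO_602, 19573689 in TKO_FL and 21133660 in TKO, and members took 0.201%, 0.216% and 0.238% of these reads. Dnmt1, the maintenance methyltransferase, stood at 2444 CPM (reads scaled to a common library total with TMM factors) in TKO_602, 3364 CPM in TKO_FL and 159 CPM in TKO. All 16 stem cell markers had at least 1 CPM in every library, with a summed level of 9042, 9050 and 7319 CPM in TKO_602, TKO_FL and TKO. The 20 markers of primitive endoderm, a lineage that can arise in stem cell cultures, summed to 1846, 1202 and 4292 CPM in the same order, and Ttr and Afp were the 2 with 0 reads in TKO_FL. The 26 fibroblast feeder markers summed to 2680, 2298 and 2428 CPM with none at 0 reads, and the 11 trophoblast markers to 164, 186 and 110.1 CPM, with Cdx2 at 0 reads in TKO_602 and Elf5 at 0 in TKO_FL and TKO. In bulk libraries fewer cells of a type and less RNA per cell cannot be told apart. Per the file headers the deepest library, TKO_602, was aligned in a folder of its own, and genotype cannot be told apart from such differences between libraries. A single library per genotype gives no replicate check and no p-value, and each difference below is one between 2 libraries. Intervals of a ratio are exact binomial at 95%, were computed on halved reads to stand for fragments, and cover counting error only. Fold values are log2 ratios of CPM plus a pseudocount of 1, the intervals carry no pseudocount, and so the fold of a low gene can lie outside its interval.

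Of the 65 members, 36 reached 1 CPM in at least 1 library, 28 reached 5 CPM, and 29 stayed below 1 CPM in all 3. Of those 29, 7 had 0 reads in every library (Slc6a18, Slc6a19os, Slc6a20b, Slc7a10, Slc7a12, Slc7a13 and Slc38a11), where a count of 0 allows up to 0.134 CPM in TKO_602, 0.312 in TKO_FL and 0.290 in TKO. The other 22 had at most 27 reads, and their CPM reached at most 0.869 (Slc6a17 in TKO). They include the transporters of noradrenaline, dopamine and serotonin: Slc6a2, the highest of this class per length on the mean of the libraries, had 0.134, 0.520 and 0.0966 CPM in TKO_602, TKO_FL and TKO. Slc3a1, the heavy chain of kidney cystine transport, had 4, 0 and 2 reads, and its light chain partner Slc7a9 0.491, 0.832 and 0.290 CPM. Slc3a1 shares 26.3% of its exonic length with Prepl on the opposite strand, and Slc7a10 shares 12% with Lrp3. Reads on both genes of such a pair are left out by default, which limits the counts of Slc3a1 and Slc7a10. Slc6a21, which belongs to none of the classes below, had 2 reads in TKO_602 and 0 in the others.

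Promoter sequences were matched for 47 of the 65 members in the RefSeq promoter table (build GRCm38.p6), and the 250 bases before 1 transcription start per member were read. Where several starts were listed, as the 5 of Slc7a7, the start nearest the gene's edge in the count table was used. For Slc3a2 and Slc1a2 the start used lay 9472 and 47749 bases from that edge. The stretches below belong to the 5 members that were at least 2-fold apart between libraries and have an entry in that table. The first 2 are members that were lower in TKO_602, with capitals marking TGATGNAA on either strand, the core of the composite element that ATF4 and C/EBP factors bind in amino acid response genes. They lie at chr3:50443614-50443863 and chr14:54417703-54417952, both on the minus strand.
Slc7a11: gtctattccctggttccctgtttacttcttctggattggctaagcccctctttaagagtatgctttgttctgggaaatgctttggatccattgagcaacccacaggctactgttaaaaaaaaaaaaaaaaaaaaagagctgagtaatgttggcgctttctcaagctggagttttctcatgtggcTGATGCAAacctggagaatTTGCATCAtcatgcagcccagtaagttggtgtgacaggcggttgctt
Slc7a7: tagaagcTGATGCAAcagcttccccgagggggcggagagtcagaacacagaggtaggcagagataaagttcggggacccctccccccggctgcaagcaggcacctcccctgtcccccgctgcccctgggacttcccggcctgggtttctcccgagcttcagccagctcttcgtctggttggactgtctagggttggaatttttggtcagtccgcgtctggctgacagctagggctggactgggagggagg
The other 3 are members that were higher in TKO_602, with capitals marking CpG dinucleotides, the sites that DNA methyltransferases modify. They lie at chr19:28834885-28835134 (plus strand), chr11:20332714-20332963 (minus strand) and chr11:55204090-55204339 (plus strand).
Slc1a1: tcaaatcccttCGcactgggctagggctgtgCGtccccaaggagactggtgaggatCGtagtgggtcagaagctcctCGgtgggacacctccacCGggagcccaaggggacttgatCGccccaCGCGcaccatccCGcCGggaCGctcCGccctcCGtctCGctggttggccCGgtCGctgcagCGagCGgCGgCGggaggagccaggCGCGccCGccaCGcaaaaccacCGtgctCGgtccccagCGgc
Slc1a4: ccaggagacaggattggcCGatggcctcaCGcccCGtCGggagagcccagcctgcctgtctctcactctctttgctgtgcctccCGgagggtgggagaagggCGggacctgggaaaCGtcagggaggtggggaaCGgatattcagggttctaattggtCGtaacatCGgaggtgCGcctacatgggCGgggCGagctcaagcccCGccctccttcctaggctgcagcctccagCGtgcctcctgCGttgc
Slc36a1: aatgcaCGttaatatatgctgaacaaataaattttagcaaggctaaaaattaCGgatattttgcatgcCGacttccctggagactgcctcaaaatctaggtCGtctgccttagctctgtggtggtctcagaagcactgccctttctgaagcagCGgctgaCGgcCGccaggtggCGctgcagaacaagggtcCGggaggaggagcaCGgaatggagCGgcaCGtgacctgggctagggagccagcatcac

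The Slc7a11 window holds TGATGNAA in both orientations, 1 match beginning 66 bases before the start and an inverted one 47 bases before it, and the Slc7a7 window holds 1 match that begins 243 bases before the start. The motif occurred in 3 of the 47 member windows and in 3.45% of all 32851 windows in the table, which include every start listed for a gene. CACGTG, the E-box letters read by MYC, USF and TFE factors, occurred in 9 of 47 member windows and in 6.02% of all windows. It was present in Slc36a1 (beginning 31 bases before the start), Slc38a7, Slc43a1, Slc1a6 and Slc6a16. The other windows with it were those of Slc1a7, Slc38a5, Slc6a3 and Slc7a14, which stayed below 1 CPM. The windows differed in CpG content: 27 CpG for Slc1a1, 16 for Slc1a4, 12 for Slc36a1, 10 for Slc7a7 and 2 for Slc7a11. The 22 matched members with at least 1 CPM had a median of 15.5 CpG (2 to 30), against 6 CpG (0 to 25) for the 25 matched members below 1 CPM and 6 for all windows. These letters describe sequence and show nothing of binding or methylation, which were not measured here.

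TKO_602 cells were set against TKO cells first. The arginine and lysine carrier Slc7a3 and the y+L light chain Slc7a7 were much lower in TKO_602, while the close relatives Slc7a1 and Slc7a6 were within 2-fold. Of the Slc1 genes, Slc1a1, Slc1a5 and Slc1a4 were higher in TKO_602, and Slc1a3 was lower by less than 2-fold. Of the 36 members tested, 5 exceeded TKO by 2-fold or more in TKO_602, where 11.0% of all 13748 genes tested did, and 4 were at least 2-fold lower, where 8.06% of all genes were. In either direction these are 9 of 36 members, against 19.0% of all genes, and the members' median log2 fold was -0.06 against 0.03. Markers differed between these libraries as well: of the stem cell markers 4 of 16 tested were at least 2-fold higher in TKO_602, of the trophoblast markers 4 of 9, and of the feeder markers 1 of 24 was higher and 6 were lower. Their part in the members' values was not tested.

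**Figure D1:**
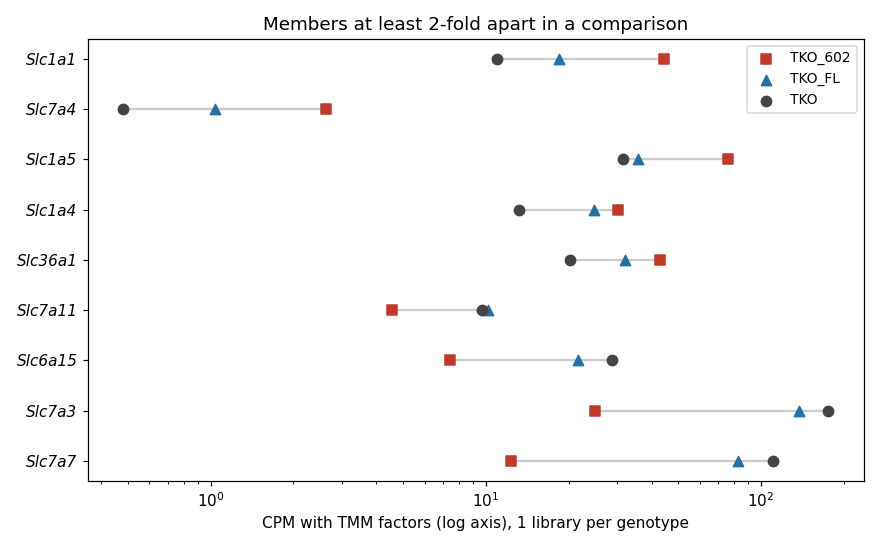
CPM with TMM factors (log axis) of 9 members at least 2-fold apart in 1 or more of the 3 comparisons, with 1 symbol per library: squares for TKO_602, triangles for TKO_FL and circles for TKO. CPM is not scaled for length, so levels are to be read within a gene. Slc7a7, Slc7a3, Slc6a15 and Slc7a11 are lowest in TKO_602, while Slc1a1, Slc1a5, Slc1a4 and Slc36a1 are highest there.

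Slc7a7, the light chain that exchanges cationic for neutral amino acids (mm10 chromosome 14, 54369442 to 54417702, minus strand), had the lowest fold of all members. It stood at 12.3 CPM in TKO_602, 82.2 CPM in TKO_FL and 110.2 CPM in TKO, a log2 fold of -3.06 between TKO_602 and TKO (interval -3.35 to -2.97). TKO_602 was thus far below the other 2 libraries, which differed by -0.42 between TKO_FL and TKO. Slc7a7 shares 228 exonic bases, 9.10% of its exonic length, with Oxa1l on the opposite strand, and Oxa1l had 4276, 1311 and 1043 reads in TKO_602, TKO_FL and TKO. The counts were made without strand, and reads on both genes are left out by default. Its close relative Slc7a6, the other y+L light chain, had 68.0, 56.5 and 71.6 CPM in the same order and a log2 fold of -0.07 between TKO_602 and TKO. Primitive endoderm markers were lower too in TKO_602 than in TKO, 12 of 17 tested by at least 2-fold. Their summed level was 1846 CPM in TKO_602, 1202 in TKO_FL and 4292 in TKO. The part of these markers in the Slc7a7 values was not tested.

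Slc7a3, a carrier of arginine and lysine (mm10 chromosome X, 101079210 to 101085405, minus strand), had 24.9 CPM in TKO_602, 138 CPM in TKO_FL and 175 CPM in TKO. Its log2 fold was -2.77 between TKO_602 and TKO (interval -2.95 to -2.68) and -2.42 between TKO_602 and TKO_FL. Slc7a1, the widely expressed arginine carrier of the same class, had 94.5, 93.3 and 104 CPM and a fold of -0.14. Per kilobase of exon, a scale on which levels of different genes can be set beside each other, Slc7a3 stood at 10.3 in TKO_602 against 72.6 in TKO, and Slc7a1 at 13.1 against 14.4, so the order of these 2 carriers was turned round in TKO_602. The 5 genes of the cationic class summed to 24.4 CPM per kilobase in TKO_602, 70.5 in TKO_FL and 87.4 in TKO. Slc7a2, another member, stayed near 2 CPM in all 3 (2.28, 2.65 and 2.12 CPM). Slc7a4, a relative with no transport role stated here, was the fifth member at least 2-fold higher in TKO_602, with 2.63, 1.04 and 0.483 CPM (log2 1.29, interval 1.14 to 4.12); it rests on 118, 20 and 10 reads and is named because it completes the count.

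**Figure D2:**
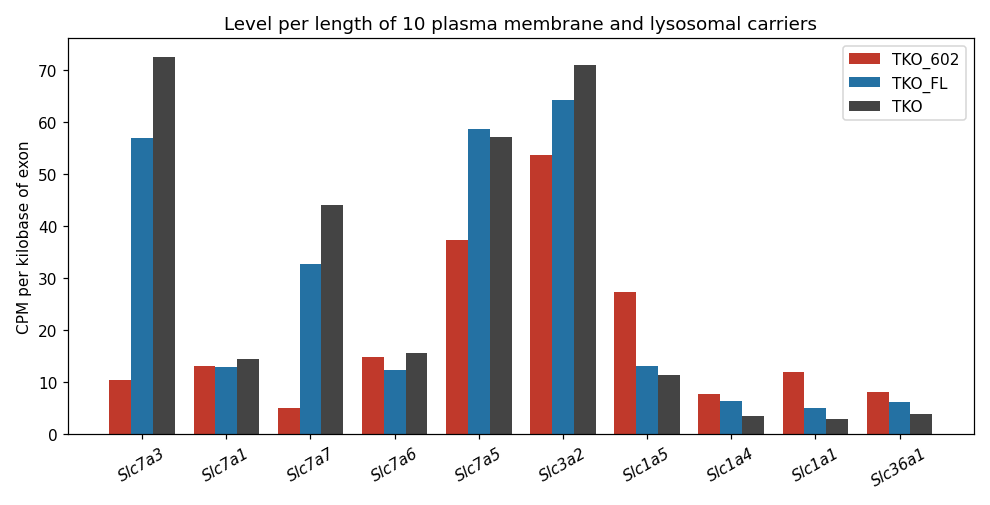
Level per length (CPM per kilobase of exon, linear axis from 0) of 10 carriers, chosen after their values were seen, in TKO_602, TKO_FL and TKO, 1 library each. Slc7a3 and Slc7a7 stand at 10.3 and 4.92 in TKO_602, while Slc7a1 and Slc7a6 stay between 12.2 and 15.5 in every library.

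Among the Slc1 genes, Slc1a1, a high-affinity carrier of glutamate, aspartate and cysteine (mm10 chromosome 19, 28835135 to 28913960, plus strand), had the highest log2 fold of the members tested on CPM plus 1. Without the pseudocount the low gene Slc7a4 had a larger ratio, 5.45 against 4.04 for Slc1a1. It stood at 44.5 CPM in TKO_602, 18.4 CPM in TKO_FL and 11.0 CPM in TKO, which gives 1.92 on the log2 scale when set against TKO (interval 1.73 to 2.31). Against TKO_FL the fold was 1.23. Slc1a5, the main glutamine exchanger of dividing cells (chromosome 7, 16781346 to 16798274, plus strand), had 75.6, 35.8 and 31.4 CPM, with a fold of 1.24 against TKO (interval 1.09 to 1.44). TKO_602 was the high library for both genes, and TKO_FL lay close to TKO for Slc1a5. Slc1a4, which exchanges alanine, serine and cysteine (chromosome 11, 20302180 to 20332713, minus strand), had 30.2, 24.7 and 13.2 CPM and a fold of 1.13 against TKO (interval 0.92 to 1.46). For this gene TKO_FL lay nearer to TKO_602, with a fold of 0.28 between those 2 libraries. The glial glutamate carrier gene Slc1a3 went the other way without reaching 2-fold (7.18, 12.1 and 11.1 CPM, log2 -0.56), and Slc1a6 had 1.09, 0.520 and 0.193 CPM. Of the 5 Slc1 genes tested, 3 thus passed 2-fold upward from TKO in TKO_602 and none passed it downward, where 11.0% and 8.06% of all genes tested did. The alanine, serine and cysteine carriers summed to 35.1 CPM per kilobase in TKO_602, 19.3 in TKO_FL and 14.8 in TKO.

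Slc36a1, a proton-coupled carrier of small neutral amino acids on lysosomes and the plasma membrane (chromosome 11, 55204340 to 55236330, plus strand), had 42.95 CPM in TKO_602, 31.98 in TKO_FL and 20.3 in TKO. Its log2 fold of 1.05 against TKO (interval 0.87 to 1.31) sat just past the threshold. The neighbouring opposite-strand gene Slc36a1os had 0, 0 and 2 reads and shares no exonic base with it. Slc36a4, a tryptophan and proline carrier, was lower in TKO_602 than in TKO by less than 2-fold (4.24, 4.68 and 7.34 CPM). Slc36a2 had 1.00, 0.156 and 0.0966 CPM, on 45, 3 and 2 reads.

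The Slc6 carriers divided. Slc6a6, the taurine transporter, was nearly level at 228 CPM in TKO_602, 214 in TKO_FL and 236 in TKO. Slc6a8, the creatine transporter, had 97.4, 100.9 and 156 CPM, with folds against TKO of -0.67 in TKO_602 (interval -0.77 to -0.58) and of -0.62 in TKO_FL, so TKO was the high library. Slc6a15, a carrier of branched-chain amino acids and proline known from brain (chromosome 10, 103367808 to 103419379, plus strand), had 7.43, 21.6 and 28.7 CPM and a fold of -1.82 against TKO (interval -2.23 to -1.67). The glycine transporter gene Slc6a9 was just short of the threshold at 4.19, 3.17 and 1.64 CPM (log2 0.98), and 46 of its exonic bases are shared with Ccdc24 on the opposite strand. The proline transporter Slc6a7 (2.41, 1.51 and 1.40 CPM) and the less studied Slc6a16 (1.25, 0.208 and 1.35 CPM) stayed under 3 CPM in every library.

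The 10 highest members per length, on the mean of the libraries and without the opposite-strand genes, include Slc7a3, Slc7a7 and Slc1a5. Apart from those, they were within 2-fold between TKO_602 and TKO. Slc38a2, the sodium-coupled carrier of small neutral amino acids that is induced by amino acid shortage, was the highest member in all 3 libraries, with 96.7 CPM per kilobase in TKO_602, 114 in TKO_FL and 128 in TKO. As CPM it stood at 450.4, 533 and 595, a log2 fold of -0.40 between TKO_602 and TKO. Slc3a2, the heavy chain that the Slc7 light chains of L, y+L and cystine exchange require, had 159, 189.9 and 210.3 CPM (log2 -0.40). Its main partner Slc7a5, which imports leucine and other large neutral amino acids, had 131, 206 and 201 CPM, a fold of -0.61 against TKO (interval -0.69 to -0.53). The second L-type light chain, Slc7a8, was low at 1.74, 1.09 and 2.08 CPM. Slc38a2, Slc3a2 and Slc7a5 were each lower in TKO_602 than in TKO by less than 2-fold. Among the other Slc38 genes, the glutamine carrier Slc38a1 had 131, 157 and 150.01 CPM, and the less studied Slc38a10 138, 111 and 117 CPM. The lysosomal carriers Slc38a7 and Slc38a9, the second of which signals arginine to mTORC1, had 30.5, 23.3 and 27.4 CPM and 15.7, 10.5 and 10.5 CPM. Slc38a3, a glutamine carrier of liver and brain, had 6.38, 4.58 and 3.09 CPM, and Slc38a6 had 4.08, 5.25 and 7.72 CPM. None of the 7 tested Slc38 genes was 2-fold apart in any of the 3 comparisons, and their folds between TKO_602 and TKO spanned -0.78 (Slc38a6) to 0.85 (Slc38a3). The same held for the facilitators Slc43a1 (30.6, 23.1 and 20.9 CPM), Slc43a2 (25.99, 24.6 and 27.6 CPM) and Slc43a3, a nucleobase carrier (5.71, 5.15 and 3.86 CPM). Of all genes tested, 19.0% were 2-fold apart between TKO_602 and TKO, 11.6% between TKO_602 and TKO_FL and 5.74% between TKO_FL and TKO. So few Slc38 and Slc43 genes cannot be set apart from these shares. Slc7a6os, whose human counterpart is linked to RNA polymerase II import, had 47.1, 39.7 and 45.9 CPM.

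**Figure D3:**
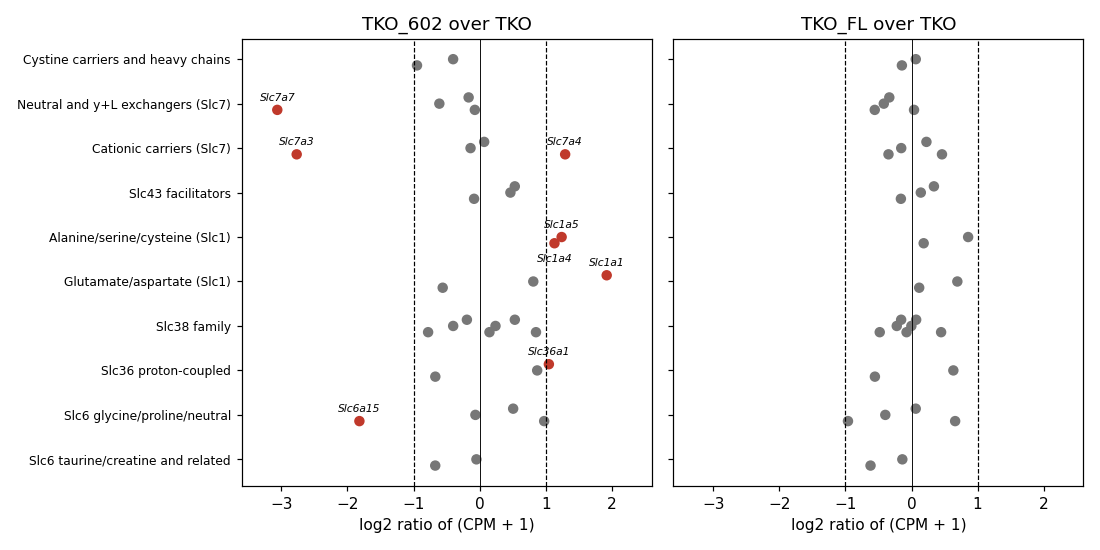
Log2 ratios of (CPM + 1) for the members described, by transporter class and without Slc7a6os, TKO_602 over TKO on the left and TKO_FL over TKO on the right; each point is 1 gene, red and named when at least 2-fold apart (dashed lines). Between TKO_602 and TKO the points span -3.06 (Slc7a7) to 1.92 (Slc1a1), and between TKO_FL and TKO those drawn span -0.96 (Slc6a16) to 0.86 (Slc1a4); both comparisons share the TKO library.

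Slc7a11, the cystine and glutamate exchanger that feeds glutathione synthesis and whose promoter elements are shown above (chromosome 3, 50364936 to 50443613, minus strand), had 4.55 CPM in TKO_602, 10.2 CPM in TKO_FL and 9.70 CPM in TKO. TKO_602 was the low library, with a fold of -0.95 when set against TKO (interval -1.50 to -0.68) and -1.01 when set against TKO_FL (interval -1.58 to -0.75). These lay on either side of the threshold and differed little. The level was low for a gene of its length, 0.493, 1.10 and 1.05 CPM per kilobase.

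Between TKO_FL and TKO, 5.74% of all genes tested were 2-fold apart in either direction, and the transporters, with 1 of 34, were near that share. Of the 34 members tested none was at least 2-fold higher in TKO_FL, where 3.24% of all 13563 genes tested were, and 1 was lower, where 2.50% of all genes were. The members' median log2 fold was -0.11, against 0.00 for all genes tested. Slc1a4 (log2 0.86), Slc1a1 (0.69), Slc6a9 (0.66) and Slc36a1 (0.63) had the highest folds on CPM plus 1, and their counting intervals lay above 0. Slc6a16 was at -0.96 on 4 reads in TKO_FL and 28 in TKO. Slc6a8 was at -0.62, Slc36a4 at -0.55, Slc38a6 at -0.48, Slc7a7 at -0.42, Slc6a15 at -0.40 and Slc7a3 at -0.35. All of these had intervals below 0. Slc7a8 was at -0.56, with an interval of -2.15 to 0.20. All 4 Slc1 genes tested lay above 0, with Slc1a5 at 0.18 and Slc1a3 at 0.12. Of the primitive endoderm markers 16 of 17 tested were at least 2-fold lower in TKO_FL than in TKO, and of the feeder markers 7 of 25. Their part in the members' values was not tested.

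Between TKO_602 and TKO_FL, 2 of 36 members tested were at least 2-fold higher in TKO_602, against 6.75% of all 13683 genes tested, and 5 were lower, against 4.87%. The higher ones were Slc1a1 (44.5 CPM in TKO_602 and 18.4 CPM in TKO_FL) and Slc1a5 (75.6 and 35.8 CPM). The lower ones included Slc7a7, Slc7a3, Slc6a15 and Slc7a11, with log2 folds of -2.64, -2.42, -1.42 and -1.01. Of these members, 4 of the lower ones and both higher ones were also past 2-fold against TKO. Both comparisons share the TKO_602 library, so some overlap comes with the design, and the same overlap over all genes was not counted. Slc1a4 and Slc36a1 were past 2-fold against TKO but not against TKO_FL, with folds there of 0.28 (interval 0.07 to 0.50) and 0.41 (interval 0.24 to 0.62). The members' median was 0.18, against 0.03 for all genes tested. Fibroblast feeder markers had 3 of 25 higher and 2 lower in this comparison, and primitive endoderm markers 5 of 16 higher and none lower; their part was not tested.

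**Figure D4:**
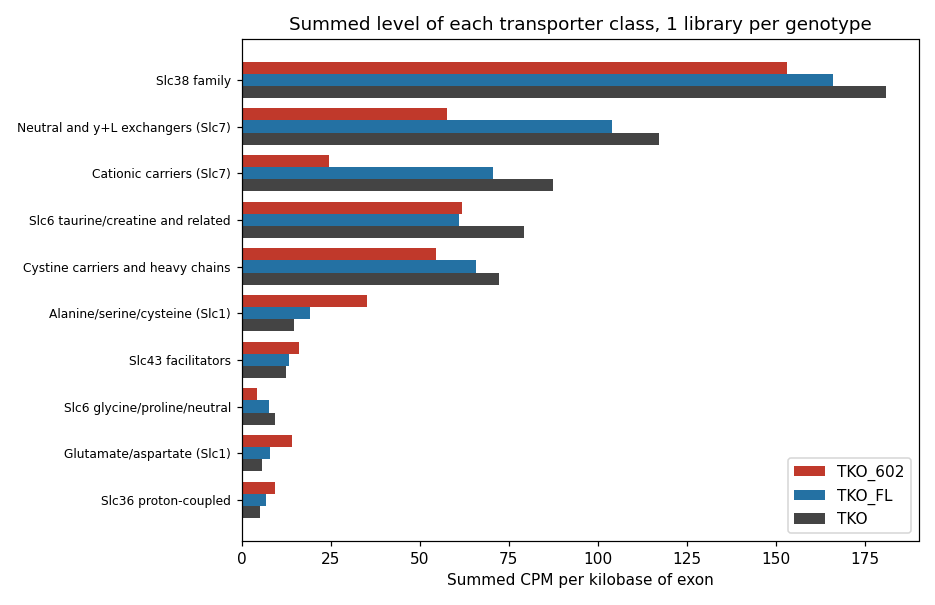
Summed CPM per kilobase of exon of each transporter class (bars from 0) in TKO_602, TKO_FL and TKO, 1 library each; noradrenaline, dopamine and serotonin carriers, at most 0.161, and Slc6a21 are left out. The cationic class is lowest in TKO_602 at 24.4 against 87.4 in TKO, and the alanine, serine and cysteine class is highest there at 35.1 against 14.8.

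Summed over the 62 family genes, transporter mRNA stood at 431 CPM per kilobase in TKO_602, 522 in TKO_FL and 584 in TKO. The Slc7 exchangers of neutral and y+L type summed to 57.5, 104 and 117, with Slc7a5 and Slc7a7 making up most of the difference, and the Slc38 class to 153, 166 and 181. Slc7a3 ranked 14 of 65 per length in TKO_602, 4 in TKO_FL and 2 in TKO, and Slc7a7 ranked 18, 6 and 5. Slc1a5 ranked 6, 11 and 13, and Slc1a1 ranked 12, 19 and 20. Slc38a2 ranked first in each.

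Other genes of amino acid transport, sensing and use were read from 7 lists by function, with 163 genes in the count table that are no members. Between TKO_602 and TKO, 8 of the 156 tested were at least 2-fold higher and 18 lower, with a median of -0.13. That is 16.7% in either direction, against 19.0% of all genes tested. By direction, 11.0% of all genes tested were at least 2-fold higher and 8.06% lower. Enzymes of serine, glycine, threonine and methionine use had 5 of 24 lower and none higher (median -0.24). The lower ones are 20.8% of this list, where 8.06% of all genes tested were lower. Tdh, the threonine dehydrogenase that mouse stem cells rely on, had 194 CPM in TKO_602, 668 in TKO_FL and 567 in TKO (log2 against TKO -1.54). Odc1, the first enzyme of polyamine synthesis, which starts from the arginine product ornithine, had 239.6, 770.1 and 1003 CPM (log2 -2.06). Mat2a, which makes S-adenosylmethionine, the methyl donor of DNA methyltransferases, had 144, 483 and 574 CPM (log2 -1.99), and Srm, spermidine synthase, 118, 226 and 353 CPM (log2 -1.57). TKO_602 was the low library for all 4, and TKO_FL was above TKO for Tdh only.

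Of the 37 genes of mTORC1 amino acid sensing, 6 were lower and 1 higher in TKO_602 than in TKO (median -0.10), a share of 18.9% that is near the 19.0% of all genes tested. Shares in either direction were 13.3% for the amino acid response, 21.1% for glutathione and cysteine, 16.7% for glutamine and glutamate and 13.6% for other transporters. In either direction none of these stood far above all genes. By direction, 11.0% of all genes tested were higher and 8.06% lower, and the 21.1% for glutathione and cysteine were all lower. The lower genes of mTORC1 sensing were led by the Rag GTPase genes Rragd (14.4, 37.3 and 64.1 CPM in TKO_602, TKO_FL and TKO) and Rragb (8.21, 23.8 and 23.2 CPM). The higher one was Castor2 (12.9, 5.77 and 5.26 CPM), a relative of the arginine sensor. Of all 13748 genes tested, 7149 lay above 0 and 6599 below it. Of 30 amino acid response genes, 22 lay above 0 and 8 below it (median 0.28), the lowest being Cebpb (log2 -0.86). At least 2-fold higher were 4, and none was lower. The higher ones were Nupr1 (14.5, 4.32 and 3.38 CPM), Vldlr, Ddit4 (134, 54.2 and 51.5 CPM) and Eif2ak4, the kinase that senses uncharged tRNA (41.8, 33.6 and 20.3 CPM). The glutathione and cysteine list, which includes Slc7a11, had 4 of 19 lower and none higher (median -0.29), with Hmox1 at 68.0, 204 and 208 CPM and Srxn1 at 19.4, 49.3 and 58.95 CPM. Glutamine and glutamate enzymes had 1 of 18 higher and 2 lower (median -0.05), with Glul, glutamine synthetase, at 110.2, 203 and 420 CPM, Prodh at 7.52, 19.8 and 26.02 CPM and Gfpt1 at 127, 61.8 and 61.3 CPM. None of 19 aminoacyl-tRNA synthetase genes was 2-fold apart, and 15 of them lay below 0 (median -0.28). Amino acid transporters of other families had 2 of 22 higher and 1 lower (median -0.24): Slc17a5, the lysosomal sialic acid and acidic amino acid carrier, at 27.3, 10.8 and 9.99 CPM, the aromatic amino acid carrier Slc16a10 at 14.5, 11.4 and 5.17 CPM, and Slc25a38, the mitochondrial glycine carrier, at 13.0, 22.1 and 34.2 CPM.

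**Figure D5:**
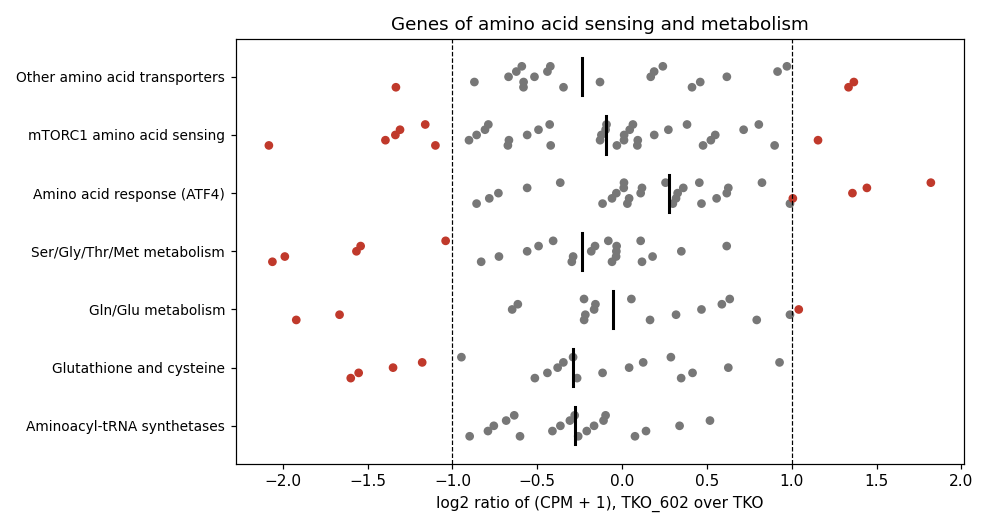
Log2 ratios of (CPM + 1), TKO_602 over TKO, for the genes of 7 lists of amino acid transport, sensing and metabolism; each point is 1 gene, red when at least 2-fold apart (dashed lines), and the black bar is the list's median. Medians lie between -0.29 and 0.28, and most red points on the left belong to the mTORC1 sensing, serine to methionine and glutathione lists.

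The same lists were closer between TKO_FL and TKO, where 4 of 155 genes were at least 2-fold higher and 2 lower, 3.87% against 5.74% of all genes tested. The higher ones were led by the proline synthesis genes Pycr1 (42.5 CPM in TKO_FL and 15.0 in TKO, log2 1.44) and Aldh18a1 (55.0 and 26.1 CPM, log2 1.05), which stand in both the amino acid response and the glutamine lists, with Slc16a10 (log2 1.01). Slc25a18, a mitochondrial glutamate carrier, completes the count at 1.30 and 0.145 CPM (log2 1.01). It rests on 25 and 3 reads and is under the 5 CPM set for naming. The lower ones were Glul (203 and 420 CPM, log2 -1.05) and Mfsd12, a lysosomal cysteine importer (8.22 and 18.8 CPM, log2 -1.11). Between TKO_602 and TKO_FL, 5 of 156 were higher and 9 lower, 8.97% against 11.6%, with Tdh (log2 -1.78), Mat2a (-1.74) and Odc1 (-1.68) among the lowest and Nupr1 (1.54) and Slc17a5 (1.27) among the highest.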

How the data were processed

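Poly(A) RNA-seq of 3 libraries (TKO_602, TKO_FL and TKO, grouped by title) was used. The authors' gene counts were made with featureCounts version 2.0.6 in paired mode on the RefSeq annotation of mm10, per the file headers, with no option for strand, read pairs or multiply mapped reads, so each mate counts alone. The submitters' processing notes also name Trim Galore, HISAT2, SAMtools and Subread. The authors also deposited a signal table, named TPM, whose columns sum to 10000000; it was divided by 10 and used as an alternative for TKO_FL against TKO. The gene tables each hold 11 other library columns that were not used, and the repeat table was not used.

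CPM used TMM factors (1.04 for TKO_602, 0.983 for TKO_FL and 0.980 for TKO) from edgeR 4.0.16 in R 4.3.3; the rest used Python 3.11.15, numpy 2.4.6, pandas 2.3.3 and scipy 1.17.1. Genes with at least 1 CPM in 1 of the 2 libraries were tested against a 2-fold threshold on log2(CPM + 1). No p-value was computed. The fold step was run on counts simulated from the TKO profile and scaled by plain totals. That run covers the fold calculation only, and neither the TMM factors nor variation between cultures. Alternatives were pseudocounts of 0.1 and 5, other filters, other scalings and the deposited TPM.

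Members described with values are those past 2-fold with at least 5 CPM, the 10 highest per length, the highest of each role class and the Slc3 heavy chains; of each pathway list, up to 4 genes per comparison with the largest folds and at least 5 CPM. Other members are given to account for the whole family, chosen after their values were seen. A further member is counted but not reported here. Members and lists were chosen with earlier results of these data known.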

Additional observations from a re-analysis of the deposited data

How the results depend on the processing

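No paired analysis was possible because each genotype has 1 library. Of the 21 members that met the rule for description, Slc3a1, Slc6a2 and Slc6a21 were below 1 CPM and had no fold. The others gave 54 folds, which include those of the member not reported here. Slc7a4 did not meet that rule, and its folds were not followed under the alternatives. Of the 54 folds, 16 were past 2-fold, and none of those 16 changed sign under the alternatives run. With no TMM factors 2 folds near 0 did change sign, Slc6a6 in TKO_602 against TKO (-0.05, 0.03 without the factors) and Slc6a8 in TKO_602 against TKO_FL (-0.05, 0.03 without them). Of the 54 folds 7 changed their side of the threshold, among them Slc1a4 (0.95) and Slc36a1 (0.92) against TKO and Slc1a5 against TKO_FL (0.98), all in TKO_602 and with a pseudocount of 5; Slc7a11 in TKO_602 against TKO_FL with a pseudocount of 5 (-0.67) or no TMM factors, and against TKO with 0.1 (-1.08).

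With a pseudocount of 0.1 the members at least 2-fold higher in TKO_602 numbered 9 against TKO and 5 against TKO_FL, and 2 members were lower in TKO_FL against TKO. With a pseudocount of 5 those counts were 2, 1 and 0, with 3 members lower in TKO_602 against TKO_FL; on the deposited TPM 0 were lower in TKO_FL against TKO. The members' median in TKO_602 against TKO_FL was 0.0837 with at least 5 CPM and 0.0630 with no filter, and against TKO it turned to 0.02 with no TMM factors. Pathway genes at least 2-fold lower in TKO_FL against TKO numbered 4 with a pseudocount of 0.1 and 1 with 5, and the higher ones 1 with 5; in TKO_602 with 5 the higher ones were 3 against TKO and 3 against TKO_FL. The alternatives for pathway genes were chosen after seeing the data. In either direction, all genes past 2-fold with pseudocounts of 0.1 and 5 numbered 1474 (10.9%) and 175 (1.29%) in TKO_FL against TKO. They numbered 3472 (25.3%) and 1212 (8.82%) in TKO_602 against TKO, and 2384 (17.4%) and 618 (4.52%) in TKO_602 against TKO_FL. The members' shares in the same order were 5.88% and 0%, 38.9% and 16.7%, and 27.8% and 11.1%. All-gene shares by direction were not computed under the alternatives. A larger pseudocount shrinks folds by construction. Depth limits the 29 members under 1 CPM, which had at most 27 reads and were given no fold.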
